A study of Mus musculus with 12 samples.

Results

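Hif1a and 9 hypoxia-inducible genes that act outside glycolysis were followed in germ cells of mouse embryos whose mothers had been withdrawn from vitamin C or supplied with it. The 10 genes were chosen by name, as Hif1a, Vegfa, Pdk1, Bnip3, Bnip3l, Higd1a, Ndrg1, Mxi1, Ddit4 and Bhlhe40, and each is among the 12516 gene symbols of the deposited table. RNA was sequenced from Oct4+ germ cells sorted from single female embryos at embryonic day 13.5. There were 6 withdrawn embryos, whose mothers lost vitamin C during the early weeks of gestation, and 6 supplied embryos, whose mothers received physiological amounts. Both diets used the same genotype, Gulo-/-, with C57BL/6 as the strain background. Without Gulo, the enzyme of the last step of vitamin C synthesis, mice depend on the diet for it. Sample titles carry a number from 1 to 4. Replicates 1 and 2 of each diet have title number 1, replicate 3 has number 2, replicate 4 has number 3, and replicates 5 and 6 have number 4. The labels do not say what that number stands for.

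Hypoxia-inducible factor (HIF) is a pair of a labile alpha subunit, such as the product of Hif1a, and a stable partner encoded by Arnt. In the presence of oxygen, prolyl hydroxylases encoded by the Egln genes mark the alpha subunit for destruction through the Vhl ubiquitin ligase. These hydroxylases need iron and 2-oxoglutarate, and vitamin C helps to keep their iron reduced. Because control is mainly exerted on the protein, the amount of Hif1a mRNA does not measure HIF activity, and the levels of target genes are a common indirect readout. HIF binds DNA at a short core, ACGTG or GCGTG.

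The sequences before the start of 4 genes are shown to let the core be seen beside the expression values: Pdk1, the member called between the diets, Vegfa, and the uncalled Bnip3 and Ddit4. They are the 250 bases before an annotated start, from RefSeq with build GRCm38.p6, 5′ to 3′ on the strand of the gene, with each ACGTG or GCGTG on either strand in capitals. The Pdk1 window lies at chr2:71872974-71873223 on the + strand, that of Vegfa at chr17:46032378-46032627, that of Bnip3 at chr7:138909507-138909756 and that of Ddit4 at chr10:59951771-59952020, the last 3 on the - strand.
Pdk1: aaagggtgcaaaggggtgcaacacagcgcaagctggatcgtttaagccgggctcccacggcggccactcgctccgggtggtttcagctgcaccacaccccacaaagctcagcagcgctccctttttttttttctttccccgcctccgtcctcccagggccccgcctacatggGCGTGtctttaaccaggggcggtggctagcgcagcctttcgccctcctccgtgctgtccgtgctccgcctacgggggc
Vegfa: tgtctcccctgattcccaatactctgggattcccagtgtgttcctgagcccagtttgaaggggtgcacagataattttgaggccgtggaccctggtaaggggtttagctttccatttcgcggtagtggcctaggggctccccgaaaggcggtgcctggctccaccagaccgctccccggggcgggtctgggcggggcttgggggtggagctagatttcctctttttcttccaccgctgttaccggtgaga
Bnip3: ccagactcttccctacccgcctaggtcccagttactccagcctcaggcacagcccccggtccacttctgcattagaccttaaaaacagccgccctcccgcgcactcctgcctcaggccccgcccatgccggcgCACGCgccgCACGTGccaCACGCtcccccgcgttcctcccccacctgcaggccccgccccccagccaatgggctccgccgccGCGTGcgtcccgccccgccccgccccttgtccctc
Ddit4: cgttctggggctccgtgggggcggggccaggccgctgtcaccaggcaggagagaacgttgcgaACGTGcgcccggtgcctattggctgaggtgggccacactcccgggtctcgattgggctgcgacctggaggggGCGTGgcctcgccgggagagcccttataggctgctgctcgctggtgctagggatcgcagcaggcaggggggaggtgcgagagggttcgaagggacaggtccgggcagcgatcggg

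The Pdk1 window shown held 1 match, while that of another annotated start held 0. The window of Bnip3 held 5 and that of Ddit4 held 2. In Bnip3, a palindromic CACGTG accounts for 2 of the 5, because it reads ACGTG on both strands. No match lay in the Vegfa window shown, and its known HIF site is further upstream. The window of a second annotated start of Vegfa, at chr17:46025164-46025413, held 2. RefSeq windows were found for 7 of the 10 genes, namely these 4, Hif1a, Mxi1 and Higd1a, with 11 starts between them. At least 1 start of each of the 7 held a match. Matches lay in 8 of the 11 windows, where 38.6% of 32851 mouse windows of that length held one. For Vegfa, only the window of the second start did. Windows of later starts of Vegfa, Pdk1 and Mxi1 lie downstream of the first start, inside the gene, and may hold transcribed or coding sequence. The windows were not matched for base composition, and a match is a stretch of letters and not a tested binding site.

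Values are normalized log2 expression, so a difference of 1 is a doubling on the deposited scale. They are not scaled to transcript length, and levels are therefore compared between embryos and not between genes. The diets were compared with limma over 12432 genes, as withdrawn minus supplied, and a gene was called at a Benjamini-Hochberg adjusted p below 0.05. All 10 members entered the test. In withdrawn embryos, 1 of the 10, Pdk1, was called higher, where 6.22% of all genes tested were. With a random effect of title number within diet, whose estimated correlation was 0.267, the count was 0 and Pdk1 had an adjusted p = 0.0525. Over all genes, that fit called 395 higher and 491 lower, 7.13% in either direction. No member was called lower, where 7.75% of all genes were, and 14.0% of genes were called in either direction. At an unadjusted p below 0.05, limma found 2 members higher, Pdk1 and Vegfa, and 0 lower. Of the 12432 genes tested, 1683 were higher and 2071 lower by that measure. An exact permutation test per gene called 0 members in either direction after adjustment. It had 1 higher (Pdk1) and 1 lower (Bhlhe40) at an unadjusted p below 0.05. Over all genes tested, the exact test called 267 higher and 291 lower, and had 1617 and 1856 at an unadjusted p below 0.05. These counts over all genes are also the background for the lists below. The diets overlapped for every member, while 4.49% of all genes tested had groups that did not overlap. The median log2 fold change was -0.04 over the members and -0.01 over all genes tested. Of the members, 4 were positive and 6 negative, where 46.6% of all genes tested were positive.

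Before the members are taken in turn, some properties of the libraries bear on every value. Correlations between libraries across genes ran from 0.987 to 0.999. On the first principal component, which held 45.5% of the variance, withdrawn embryos lay from 1.27 to 23.2, and supplied replicate 4 lay at 1.54, inside that range. The other supplied embryos lay from -18.3 to -6.56. The 11 germ cell markers had mean values per embryo of 11.05 to 11.17 in withdrawn and 10.98 to 11.16 in supplied embryos. That mean joins opposite changes, since 6 of the 11 were called higher in withdrawn embryos (Pou5f1 0.45, Tfap2c 0.39, Prdm1 0.26, Dppa3 0.23, Sall4 0.23 and Dnd1 0.23) and 3 lower (Mael -0.77, Dazl -0.43 and Ddx4 -0.34). The part of these changes in the results below was not tested. Over all genes tested, 6.22% were called higher and 7.75% lower, and 46.6% had positive estimates. Markers of ovarian supporting cells had negative estimates in 14 of 14 cases and 2, Kitl (-0.32) and Emx2 (-0.18), were called lower, with mean values of 5.06 to 5.24 in withdrawn and 5.14 to 5.37 in supplied embryos (exact two-sided permutation p = 0.0325). All 6 mesenchymal markers kept were negative and 1, Fbln1 (-0.29), was called lower, with mean values of 5.98 to 6.10 in withdrawn and 6.01 to 6.42 in supplied embryos (exact two-sided permutation p = 0.0238). Fbln1 averaged 9.33 in withdrawn and 9.63 in supplied embryos and was the 1 mesenchymal marker above the median gene. The mean of the 6 endothelial markers ranged from 6.12 to 6.25 in withdrawn and from 6.06 to 6.27 in supplied embryos. Of these, 1 lay above the median gene, Pecam1, which averaged 11.38 in withdrawn and 11.18 in supplied embryos. Pecam1 and Fbln1 are also among the 35 genes of the somatic covariate used below. The mean of macrophage markers (4 kept) ranged from 4.46 to 4.63 in withdrawn and from 4.54 to 4.81 in supplied embryos. That of mesonephric epithelium markers (5 kept) ranged from 5.26 to 5.37 in withdrawn and from 5.31 to 5.39 in supplied embryos. No marker of these 3 types was called, and none of the 10 erythroid markers is among the listed symbols. The exact two-sided permutation p of the mean was 0.136 for germ cell and 0.184 for endothelial markers. It was 0.374 for macrophage and 0.368 for mesonephric epithelium markers. None of these marker p values is adjusted, and all take embryos as independent. In RNA from sorted cells, fewer cells of a type and less RNA per cell cannot be told apart.

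Hif1a, the oxygen-regulated subunit, did not differ beyond the spread between embryos. Its lowest, median and highest values were 11.26, 11.57 and 11.81 in withdrawn embryos, against 11.30, 11.63 and 11.84 in supplied embryos. The ranges lay almost on top of each other, and the low ends were withdrawn replicate 5 and supplied replicate 4. Hif1a averaged 11.57 ± 0.19 in withdrawn and 11.62 ± 0.18 in supplied embryos (SD, n = 6 each), a log2 fold change of -0.05 with a standard error (SE) of 0.09 (limma adjusted p = 0.722). The 95% interval of the difference ran from -0.24 to 0.13. The estimate was 0.04 without the 4 embryos of title number 4.

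**Figure D1:**
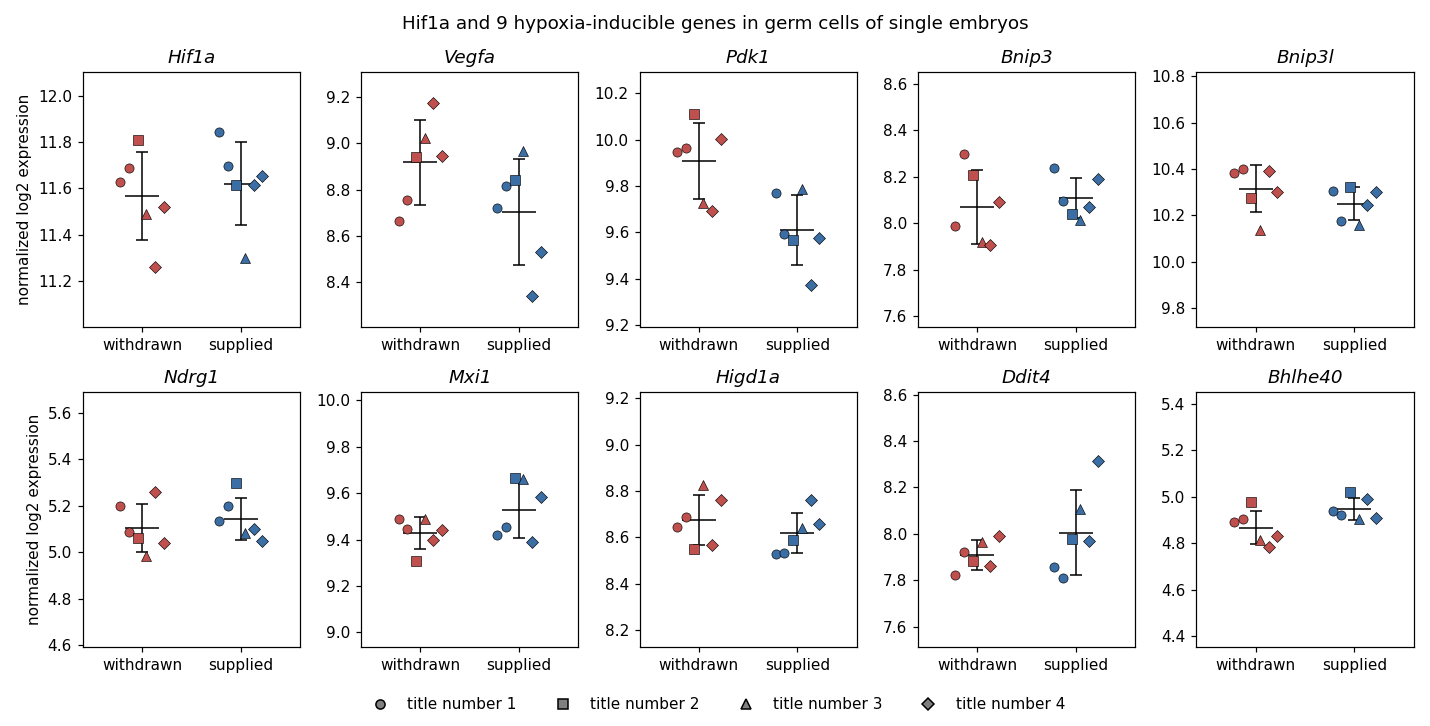
Normalized log2 expression of the 10 genes in every embryo (y axes, each spanning the same number of log2 units), with withdrawn embryos left in red and supplied embryos right in blue; lines are means with SD (n = 6), and marker shapes give the title number. Pdk1 averages 9.91 in withdrawn against 9.61 in supplied embryos, and the diets overlap in every panel.

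Pdk1 encodes a pyruvate dehydrogenase kinase, which switches off the enzyme complex that feeds pyruvate into the mitochondrial citric acid cycle. Its lowest, median and highest values were 9.69, 9.96 and 10.11 in withdrawn embryos, against 9.38, 9.58 and 9.79 in supplied embryos. All 6 withdrawn embryos lay above the supplied mean and 4 lay above every supplied embryo; withdrawn replicates 4 and 5 did not. Pdk1 averaged 9.91 ± 0.16 in withdrawn and 9.61 ± 0.15 in supplied embryos (SD, n = 6 each). The log2 fold change was 0.30 (SE 0.08, 95% interval 0.12 to 0.47, limma adjusted p = 0.0212), a 1.23-fold higher level. It ranked 933rd by p among the genes tested. Its absolute fold change was larger than that of 93.6% of them.

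Pdk1 was higher in withdrawn embryos within 3 of the 4 title numbers. The withdrawn mean minus the supplied mean was 0.27 in number 1, 0.54 in number 2, -0.06 in number 3 and 0.37 in number 4, where numbers 2 and 3 hold 1 embryo of each diet. When 1 embryo was left out, the call was lost in 2 fits and kept in the others, with log2 fold changes from 0.25 to 0.34. It was lost without withdrawn replicate 6 (0.28, adjusted p = 0.0504), where 9.58% of all genes were called. It was also lost without supplied replicate 5 (0.25, adjusted p = 0.0642), where 6.5% were. Neither did the call hold with the random effect of title number (0.29, adjusted p = 0.0525) or with embryos of a title number and diet averaged (0.28, adjusted p = 0.0887). Without title number 1, 2 or 4 it was lost too, with adjusted p between 0.0763 and 0.169. Without supplied replicate 4 the fold change was 0.33 (adjusted p = 0.00901). With the mean of 35 somatic markers as a covariate, Pdk1 was at 0.22 (adjusted p = 0.285), in a fit that called 0.00804% of all genes.

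The other genes of pyruvate dehydrogenase control were not called. Of 11 further genes, which cover the kinases Pdk2, Pdk3 and Pdk4, the phosphatases and the subunits of the complex, limma called 0 higher and 0 lower, and so did the exact permutation test after adjustment. At an unadjusted p below 0.05, limma had 0 higher and 2 lower, the phosphatase subunit Pdp1 (-0.17, adjusted p = 0.106) and Pdk3 (-0.19, adjusted p = 0.147), and the exact test had 0 higher and 1 lower. The subunit gene Pdha1, whose product carries the phosphorylation sites, was at 0.13 (SE 0.07, adjusted p = 0.223).

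Vegfa encodes the secreted ligand that makes blood vessels grow towards poorly oxygenated tissue. Its lowest, median and highest values were 8.67, 8.94 and 9.17 in withdrawn embryos, against 8.34, 8.77 and 8.96 in supplied embryos. The withdrawn embryos were higher on average, but only 2 of them exceeded every supplied embryo, and supplied replicates 5 and 6 were the lowest of all. Vegfa averaged 8.92 ± 0.18 in withdrawn and 8.70 ± 0.23 in supplied embryos (SD, n = 6 each), a log2 fold change of 0.22 (SE 0.10, 95% interval 0.01 to 0.42, limma adjusted p = 0.142). The withdrawn mean minus the supplied mean was 0.62 in embryos of title number 4. It was -0.06, 0.10 and 0.06 in numbers 1, 2 and 3, and without number 4 the fold change was 0.01 (adjusted p = 0.969).

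Among 7 further VEGF ligand and receptor genes kept, limma and the exact test called 0 in either direction. At an unadjusted p below 0.05, limma had 0 higher and 2 lower, the receptor genes Flt4 (-0.12, adjusted p = 0.0547) and Flt1 (-0.07, adjusted p = 0.0589), and the exact test had 0 higher and 1 lower. Flt1 averaged 3.48 in withdrawn and 3.55 in supplied embryos, close to the lowest entry of the table at 2.82, where changes may be understated. Figf, which encodes the ligand VEGF-D, was at -0.10 (SE 0.05, adjusted p = 0.211).

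Bnip3 and Bnip3l encode related proteins of the outer mitochondrial membrane that mark mitochondria for removal by autophagy. The lowest, median and highest values of Bnip3 were 7.91, 8.04 and 8.30 in withdrawn embryos, against 8.02, 8.08 and 8.24 in supplied embryos. Withdrawn embryos lay on both sides of the supplied range, with 3 below and 1 above all supplied embryos. Bnip3 had a log2 fold change of -0.04 (SE 0.08, 95% interval -0.20 to 0.12, limma adjusted p = 0.772). The lowest, median and highest values of Bnip3l were 10.14, 10.34 and 10.40 in withdrawn embryos, against 10.16, 10.27 and 10.32 in supplied embryos. For Bnip3l, 3 withdrawn embryos lay above and 1 below every supplied embryo. Its log2 fold change was 0.06 (SE 0.06, 95% interval -0.07 to 0.20, limma adjusted p = 0.538).

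Of 16 partners in mitophagy and autophagy, 1 rose and 1 fell, where 6.22% of all genes tested were called higher and 7.75% lower. Sqstm1, the cargo receptor that links ubiquitinated material to the autophagosome, rose by 0.33 (SE 0.07, adjusted p = 0.00577), with diets that did not overlap, and was called in 24 of 27 alternatives. Park2, which encodes the ubiquitin ligase parkin, fell by 0.08 (adjusted p = 0.0379) at values near the low end of the table, and was called in 8 of 27. Its call was lost without withdrawn replicate 1, 2, 3, 5 or 6 or supplied replicate 2, 4 or 5. The genes Map1lc3b (0.19, adjusted p = 0.0779) and Gabarapl2 (0.20, adjusted p = 0.0953), which encode proteins of the autophagosome membrane that bind such receptors, did not pass. Fundc1, another mitophagy receptor of the outer membrane, had an estimate of -0.19 (adjusted p = 0.0971).

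Higd1a encodes a small protein of the inner mitochondrial membrane that associates with respiratory complexes. Across withdrawn embryos, its lowest, median and highest values were 8.55, 8.67 and 8.83, against 8.53, 8.61 and 8.76 in supplied embryos. These ranges nearly coincided. The log2 fold change was 0.05 (SE 0.07, 95% interval -0.09 to 0.20, limma adjusted p = 0.636). The 1 relative of Higd1a kept, Higd2a, was at 0.19 (SE 0.07) and did not pass (adjusted p = 0.0764).

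Mxi1 encodes a repressor that competes with Myc for its partner Max. Values of Mxi1 had a minimum, median and maximum of 9.31, 9.44 and 9.49 in withdrawn embryos, against 9.39, 9.52 and 9.67 in supplied embryos. All 6 withdrawn embryos lay below the supplied mean but only 1 lay below every supplied embryo. Mxi1 had a log2 fold change of -0.10 (SE 0.07, 95% interval -0.24 to 0.04, limma adjusted p = 0.333). Of 9 other genes of the Max network kept, limma called 1 lower and 0 higher, where 7.75% and 6.22% of all genes tested were. The lower gene was Mxd4, another repressor that pairs with Max, with 7.87 ± 0.19 in withdrawn and 8.43 ± 0.45 in supplied embryos (SD, n = 6 each, log2 fold change -0.55, SE 0.14, adjusted p = 0.0159), and it was called in 22 of 27 alternatives. At an unadjusted p below 0.05, limma had 2 higher, the Max partner gene Mnt (0.21, adjusted p = 0.0981) and the proto-oncogene Mycn (0.18, adjusted p = 0.109), and 2 lower, Mxd4 and Mga (-0.16, adjusted p = 0.136), which encodes another partner of Max. By the exact permutation test, none was called after adjustment, with 2 higher and 2 lower at an unadjusted p below 0.05.

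Ddit4 encodes an inhibitor of the growth-promoting kinase complex mTORC1. The minimum, median and maximum of Ddit4 were 7.82, 7.90 and 7.99 in withdrawn embryos, against 7.81, 7.97 and 8.32 in supplied embryos. The withdrawn embryos filled the lower part of the supplied range, and the highest value was that of supplied replicate 6. Ddit4 averaged 7.91 ± 0.06 in withdrawn and 8.01 ± 0.18 in supplied embryos (SD, n = 6 each), a log2 fold change of -0.10 (SE 0.08, 95% interval -0.26 to 0.06, limma adjusted p = 0.425).

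Of 13 other genes of the mTORC1 pathway, 2 rose and 2 fell, where 6.22% of all genes tested were called higher and 7.75% lower. Eif4ebp1, the translational repressor that mTORC1 switches off, rose by 0.42 (SE 0.09, adjusted p = 0.00721). Sesn2, a sestrin that inhibits mTORC1 when leucine is scarce, rose by 0.28 (SE 0.07, adjusted p = 0.0137), with diets that did not overlap, while its paralogue Sesn3 fell by 0.37 (SE 0.10, adjusted p = 0.0175), also without overlap. Tsc1, a subunit of the complex through which Ddit4 acts, fell by 0.23 (SE 0.07, adjusted p = 0.0283). Eif4ebp1, Sesn2 and Sesn3 were each called in 23 of 27 alternatives and Tsc1 in 16. Deptor, which encodes an inhibitor bound to mTOR, had an estimate of 0.19 (adjusted p = 0.0799). The call of Sesn3 was lost without supplied replicate 5, and that of Tsc1 without withdrawn replicate 4, 5 or 6 or supplied replicate 3 or 5.

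Bhlhe40 encodes a basic helix-loop-helix repressor that also takes part in the circadian clock. Its lowest, median and highest values were 4.78, 4.86 and 4.98 in withdrawn embryos, against 4.91, 4.93 and 5.02 in supplied embryos. For this gene, 5 of 6 withdrawn embryos lay below every supplied embryo, and withdrawn replicate 3 lay inside the supplied range. Bhlhe40 averaged 4.87 ± 0.07 in withdrawn and 4.95 ± 0.05 in supplied embryos (SD, n = 6 each). The log2 fold change was -0.08 (SE 0.04, 95% interval -0.16 to 0.00064), and it did not pass (limma adjusted p = 0.169; exact permutation p = 0.0455, adjusted 0.170). Only 11.5% of genes had a lower mean value, and in this range of the scale changes may be understated. Of 10 other clock genes kept, limma called 1 lower and 0 higher, where 7.75% and 6.22% of all genes tested were. The lower gene was Per3 (-0.24, SE 0.08, adjusted p = 0.0416). It was called in 9 of 27 alternatives and lost without withdrawn replicate 2, 3, 4 or 6 or supplied replicate 2, 3, 5 or 6. Per1 (-0.17, adjusted p = 0.0926) and Per2 (-0.14, adjusted p = 0.109), like Per3 members of the period family, did not pass. Arntl, which encodes Bmal1, had a positive estimate (0.12, adjusted p = 0.228) and did not pass either. Before adjustment, limma had 0 clock genes higher and 3 lower at a p below 0.05. The exact permutation test called no clock gene after adjustment. At an unadjusted p below 0.05 it had 1 higher, Arntl (exact p = 0.0498), and 2 lower.

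Ndrg1 encodes a cytoplasmic protein linked to differentiation and stress. For Ndrg1 the minimum, median and maximum were 4.98, 5.07 and 5.26 in withdrawn embryos, against 5.05, 5.12 and 5.30 in supplied embryos. The ranges overlapped for most of their length. The log2 fold change was -0.04 (SE 0.05, 95% interval -0.14 to 0.07, limma adjusted p = 0.658), and it was 0.000393 with quantile normalization. As for Bhlhe40, its values are low, with 13.7% of genes at a lower mean. Its relatives Ndrg3 (-0.01) and Ndrg4 (-0.03) did not pass, and neither limma nor the exact test had either of them at an unadjusted p below 0.05.

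**Figure D2:**
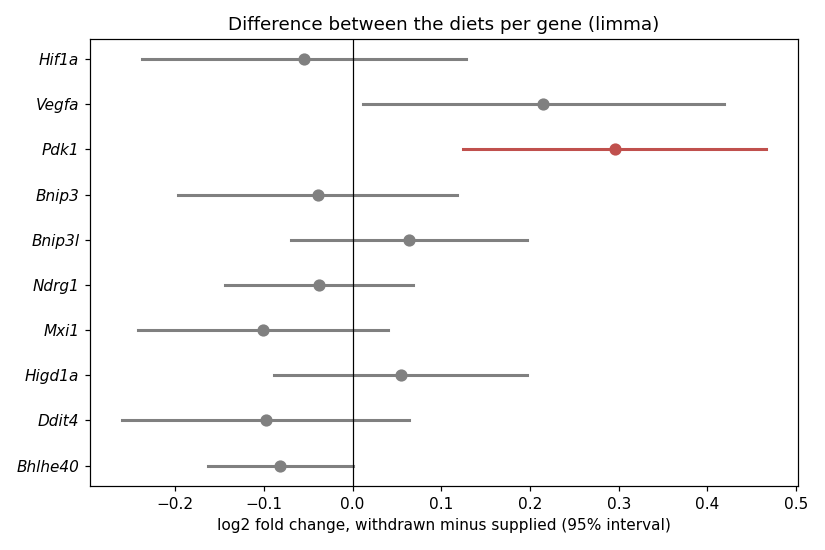
Log2 fold change, withdrawn minus supplied, with 95% interval (x axis) for each gene (y axis); red marks the called gene and grey the uncalled ones. Pdk1 is the 1 called gene, from 0.12 to 0.47, and the interval of every gene other than Pdk1 and Vegfa includes 0.

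Of 18 genes of the oxygen-sensing machinery upstream of these genes, 1 rose, 3 fell and 14 were not called, where 6.22% of all genes tested were called higher and 7.75% lower. With the random effect of title number, 0 were called higher and 2 lower, in a fit that called 7.13% of all genes. Egln3, a prolyl hydroxylase that HIF itself induces, averaged 8.70 ± 0.11 in withdrawn and 8.40 ± 0.20 in supplied embryos (SD, n = 6 each, log2 fold change 0.30, SE 0.08, adjusted p = 0.0231). Egln1, the main prolyl hydroxylase acting on the Hif1a product, averaged 8.31 ± 0.10 in withdrawn and 8.59 ± 0.15 in supplied embryos (log2 fold change -0.27, SE 0.08, adjusted p = 0.0213). Hif3a, an alpha subunit with forms that restrain HIF, fell by 0.24 (SE 0.05, adjusted p = 0.00640), with diets that did not overlap, and Arnt2, a homologue of Arnt, fell by 0.18 (SE 0.05, adjusted p = 0.0231). Arnt (-0.0046) and Egln2 (-0.0041) had estimates near 0. Vhl was at -0.14 (adjusted p = 0.164), and the ubiquitin ligase genes Siah1a (-0.13, adjusted p = 0.227) and Siah2 (-0.12, adjusted p = 0.237), whose products act on prolyl hydroxylases, were not called either. The call of Egln3 was lost without withdrawn replicate 4 or 6 or supplied replicate 5 or 6, and the 3 lower genes were 1 without supplied replicate 5. Without supplied replicate 5, 6.5% of all genes were called in either direction, against 14.0% in the reported fit. The calls of Egln1 and Arnt2 were lost without supplied replicate 5, that of Egln1 also without supplied replicate 6, and that of Arnt2 also without withdrawn replicate 6 or supplied replicate 2. The median of the 18 was -0.0058, against -0.0093 over all genes tested.

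Of 28 other HIF targets outside glycolysis that were kept, 3 rose and 0 fell, where 6.22% of all genes tested were called higher and 7.75% lower. With the random effect of title number, 1 was called higher and 0 lower, in a fit that called 7.13% of all genes. The 3 were Kdm3a, a histone H3K9 demethylase (0.25, SE 0.06, adjusted p = 0.0133), Pim1, a survival kinase (0.26, SE 0.07, adjusted p = 0.0246), and the cytokine gene Mif (0.25, SE 0.08, adjusted p = 0.0346). The diets did not overlap for Kdm3a. At an unadjusted p below 0.05, limma had 5 higher and 2 lower. The higher ones that were not called were the carbonic anhydrase gene Car12 (0.17, adjusted p = 0.0594) and Sap30 (0.22, adjusted p = 0.0960), which encodes a subunit of a histone deacetylase complex. The lower ones were the collagen lysyl hydroxylase genes Plod2 (-0.24, adjusted p = 0.0605) and Plod1 (-0.16, adjusted p = 0.121). The exact permutation test called 1 higher and 0 lower. Leaving out withdrawn replicate 4 or supplied replicate 5 reduced the 3 higher genes to 1, in fits that called 10.4% and 6.5% of all genes. There were 5 without withdrawn replicate 3, with 1 lower, and 5 without supplied replicate 4, with 2 lower. Those fits called 15% and 18.6% of all genes, against 14.0% in the reported fit. Mif was called in 13 of 27 alternatives, and not without withdrawn replicate 4, 5 or 6 or supplied replicate 1, 2, 5 or 6. The median of the 28 was 0.06.

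For comparison, 6 of 17 glycolytic HIF targets rose and 0 fell, where 6.22% of all genes tested were called higher and 7.75% lower. The median of the 17 was 0.19 and 15 were positive, where 46.6% of all genes tested were positive. The 6 called were Hk1, Pfkp, Pkm2, Pgk1, Pgam1 and Eno1, between 0.22 and 0.60. With the random effect of title number, 5 were called higher and 0 lower, in a fit that called 7.13% of all genes. Before adjustment, limma had 10 higher and 0 lower at a p below 0.05, and the exact test called 2 higher and 0 lower. The 6 were 11 without supplied replicate 4, in a fit that called 18.6% of all genes, against 14.0% in the reported fit. The difference between glycolytic targets and the 10 genes described here was not tested.

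**Figure D3:**
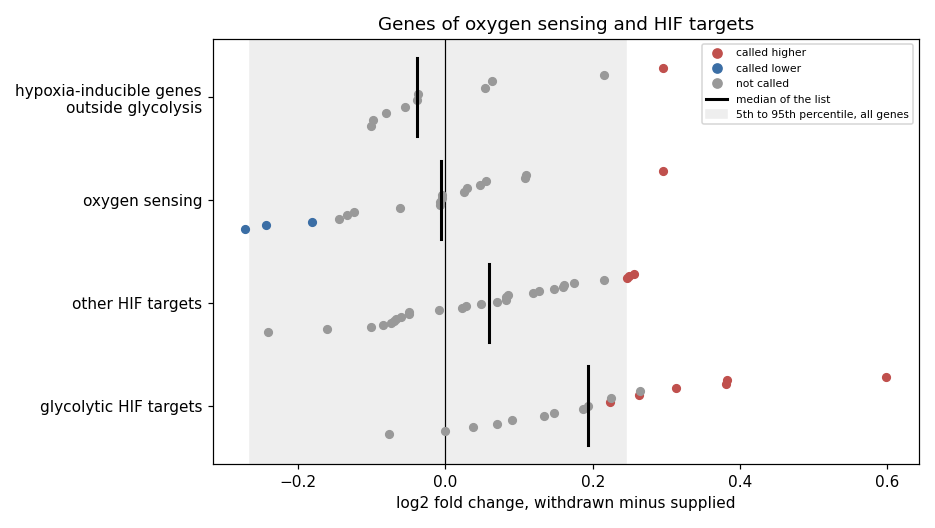
Log2 fold change, withdrawn minus supplied (x axis), of each kept gene in 4 lists (rows); points are genes, red called higher, blue called lower and grey not called, black bars are list medians, and the grey band spans the 5th to the 95th percentile of all genes tested. The medians are -0.04, -0.01, 0.06 and 0.19 from top to bottom.

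Among all other genes, the pattern of Pdk1 over the 12 embryos was most like those of Itga1, A730098P11Rik and Tfpi. Their Pearson r with Pdk1 was 0.976, 0.931 and 0.930 and their Spearman rho 0.986, 0.958 and 0.916. With each diet's mean removed, r was 0.955, 0.892 and 0.870, and without the 2 embryos farthest from the Pdk1 median it was 0.957, 0.869 and 0.903. Itga1, which encodes an integrin subunit, differed by 0.29 between the diets (adjusted p = 0.0302) and Tfpi, which encodes an inhibitor of coagulation, by 0.27 (adjusted p = 0.0123). These genes were picked for their r out of all genes tested, so it is a description with no test.

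**Figure D4:**
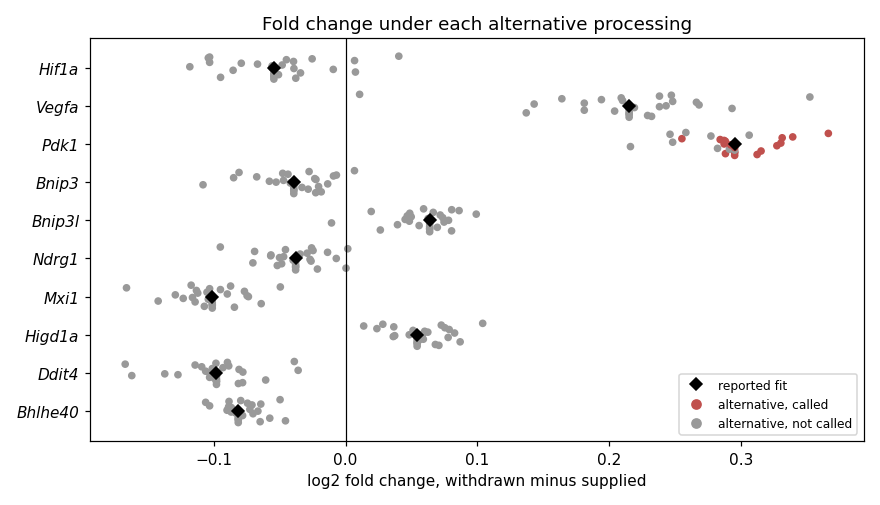
Log2 fold change, withdrawn minus supplied (x axis), of each gene (y axis) in the reported fit (black diamonds) and in 27 alternatives (circles, red where called and grey where not). Pdk1 ranges from 0.22 to 0.37 and is called in 18 of 27, and no other gene is called in any of them.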

How the data were processed

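RNA from sorted germ cells of 12 embryos, 6 withdrawn and 6 supplied, was analysed from 1 table, in which the authors deposited normalized log2 expression values per gene symbol and embryo. The submitters' processing notes name DESeq2 1.10.1, TopHat2 2.0.13, Trim Galore 0.4.0 and FastQC, and genome build mm9, without roles. How reads were counted, genes filtered and values transformed is not stated there. Sequencing depth is therefore unknown, no counting error is given, and differences of genes with low values may be understated.

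Genes with a mean value of at least 3.32 (log2 of 10) were kept, which left 12432 of 12516. Diets were compared with limma 3.58.1 in R 4.3.3 (two-sided, variances moderated with a trend, adjusted over all kept genes). The exact permutation test used all 924 arrangements, with a smallest p of 0.00216. Embryos are taken as independent, although those sharing a title number may not be, and p values of the reported fit may then be too small. With the random effect of title number within diet, 886 genes were called, against 1737 in the reported fit. The p values rest on the spread between these samples alone.

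The genes, the lists and the tests were chosen with earlier results of these data known. The rule for names was all 10 genes, every called gene of the pathway and partner lists, up to 3 uncalled ones with the smallest p, and the 3 genes closest to a called member, with called markers. Arnt, Egln2, Plod1 and the uncalled marker Pecam1 fall outside that rule and were chosen after their values were seen. Fewer than 3 uncalled genes are named for the glycolytic and mTORC1 lists. Older symbols were checked against RefSeq synonyms, and only Eraf, tried for the erythroid marker Ahsp, was not among them. Promoter windows of RefSeq (GRCm38.p6, another build than mm9) were matched by symbol. The fit was tested on simulated data with independent embryos and planted changes larger than that of any member. That test does not cover embryos correlated within a title number or changes as small as those of the members. The 27 alternatives varied low-value filtering, normalization, variance moderation, array weights, the test, how title numbers were handled, a covariate of somatic markers and which embryos were included (statmod 1.5.0).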

Additional observations from a re-analysis of the deposited data

How the results depend on the processing

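Of 27 alternatives, 18 kept the call of Pdk1, whose adjusted p ranged from 0.00454 to 0.285. The count of members called higher was 0 with the exact test per gene, with a random effect for title number within diet, with embryos of a title number and diet averaged, with the somatic covariate and without title number 1, 2 or 4, and from 0 to 1 when 1 embryo was left out. No other member was called in any alternative, and none was called lower. Estimates changed sign for Hif1a with averaging (0.00753), without title number 4 (0.0404) and when 1 embryo was left out (-0.118 to 0.00686), for Bnip3 without title number 4 (0.0068), for Bnip3l with the somatic covariate (-0.0106) and for Ndrg1 with quantile normalization (0.000393) and without title number 2 (0.00172).

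Among oxygen sensing genes, the 1 higher was 0 with the exact test, the random effect, averaging, the somatic covariate and without title number 1 or 4, and from 0 to 1 without 1 embryo. The 3 lower were 1 with the exact test, 0 with averaging, the covariate and without title number 4, and from 1 to 3 without 1 embryo. Among other HIF targets, the 3 higher were 1 with the exact test, the random effect and without title number 1, 0 with averaging, the covariate and without title number 4, and from 1 to 5 without 1 embryo. Their 0 lower was 1 with array weights and with the title number as a replicate block, 2 without title number 3, and from 0 to 2 without 1 embryo. The 6 higher glycolytic targets were 5 with the random effect, 2 with the exact test and 1 with averaging. They were 0 with the covariate and without title number 4, 3 without title number 1, and from 5 to 11 without 1 embryo. The cause of these changes was not tested.

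Over all genes, 1737 were called in the reported fit, 49 without title number 4 and 1 with the somatic covariate. The exact test called 558, averaging 298, array weights 1935, and the fits without title number 1 or 3 called 729 and 1885. When 1 embryo was left out, from 808 to 2315 genes were called. The counts in the lists above are therefore to be read beside these totals. With the replicate block 2062 genes were called, Pdk1 at an adjusted p of 0.0190. Deviations from the diet means correlated at 0.270, -0.104, 0.178 and -0.171 between diets for title numbers 1 to 4, and 2 of 4 numbers correlated best with their own. With only 4 numbers, this check cannot decide whether they pair the diets, and the reported fit leaves pairing out. Within a diet, embryos of a title number had an estimated correlation of 0.267, and 886 genes were called with it. A pseudocount could not be varied on deposited log2 values.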

Other observations

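Within the diets, members moved together to different degrees. With each diet's mean removed, Pearson r over the 12 embryos was taken for every pair of the 10 members, and only extremes are named. The highest were Hif1a with Bnip3 (0.751) and Hif1a with Bhlhe40 (0.641). The lowest were Ndrg1 with Higd1a (-0.607), Ndrg1 with Ddit4 (-0.549) and Hif1a with Vegfa (-0.503). Genes outside the members, picked for their r with Hif1a out of all genes tested, were closer to it. They were Hspd1 (0.956), Ergic2 (0.961) and Gfpt1 (0.957). Hspd1 was also closer to Bnip3 (0.855) than Hif1a was. Whether the member pairs stand out from pairs of other genes was not tested. Withdrawn replicate 5 had both the lowest Hif1a value, 11.26, and the highest Vegfa value, 9.17, of all embryos. That embryo also had the highest value on the first principal component, 23.2. These are descriptions over 12 embryos, with no test.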
